A study of Arabidopsis thaliana with 17 samples.

Results

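The H3K27me3 cover of 27444 nuclear protein-coding genes of Arabidopsis thaliana was compared between endosperm and leaf. Every such gene of the annotation was a member of the comparison, and 5 of the 17 libraries of the series carried the measurement. CUT&RUN was used, in which an antibody brings a nuclease to the chromatin it binds and the released fragments are sequenced. The endosperm libraries came from sorted 6N nuclei of F1 seeds (Col mother, Ler father) at 4 days after pollination. They were made after fixation with 1% formaldehyde for 8 min (fixed 1 and fixed 2) or without fixation (unfixed 1 and unfixed 2). The leaf library came from 2N, 4N and 8N nuclei of 3-week-old Col plants. Genotype, ploidy sort and age therefore changed together with the tissue, and their parts in any difference cannot be told apart. Leaf had 1 library, so no test between the tissues was possible, and the differences are descriptions set against the spread of the 4 endosperm lists.

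H3K27me3 is the trimethylation of lysine 27 on histone H3. Polycomb repressive complex 2 writes it, and it usually lies over whole silent genes, in plants most of all over developmental regulators and genes used in few tissues. The endosperm is the tissue that feeds the embryo. In it, a seed form of the complex with the subunits MEA and FIS2 silences genes, and its loss lets the tissue overgrow.

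The authors deposited 1 list of H3K27me3 domains for each library. The measure used here is cover, the percent of a gene body that lies inside the domains of a list, and a gene is called marked at 50% or more. Mean cover over all genes was 19.7%, 19.6%, 21.1% and 15.9% in fixed 1, fixed 2, unfixed 1 and unfixed 2, and 20.2% in leaf. Unfixed 2 stood apart, with 4383 marked genes against 5537 to 5928 in the other endosperm lists and 5583 in leaf. Its domains covered 12.7 Mb, against 19.8 to 21.3 Mb in the other endosperm lists. Their median width was 1200 bp, against 1800 to 2250 bp. Among the 11545 genes with a domain in at least 1 list, the median SD over the endosperm lists was 16.2 percentage points. Cover of a gene differed by 50 points or more between endosperm lists in 3983 genes, and unfixed 2 alone was the lowest list in 1252 of them (31.4%). The files do not give the depth of any library. The labels do not say that libraries of a group came from separate plants, so this spread may be technical. Nuclei were pooled, so a mark in fewer nuclei and less mark per nucleus cannot be told apart.

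A gene was counted as having more cover in one tissue when 3 conditions held. The endosperm mean and leaf differed by at least 50 points, leaf lay outside the range of the 4 endosperm lists, and the difference exceeded 2 SD of those lists. More cover in endosperm was found for 830 genes (3.02% of all genes tested, 7.19% of those with any cover). More cover in leaf was found for 933 genes (3.40% and 8.08%). In simulated lists, described with the processing below, the same rule called 164 unchanged genes towards endosperm and 16 towards leaf. The 2 tissues differed by less than 10 points in 3973 of the covered genes (34.4%), and leaf lay inside the endosperm range in 7794 (67.5%). No list covered the other 15899 genes. Another 267 genes in the endosperm direction and 477 in the leaf direction passed 50 points but not the conditions on the spread. At the threshold itself, the members nearest to it differed by 50.0 points, and the nearest genes outside it by 49.98 and -49.95 points.

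**Figure D1:**
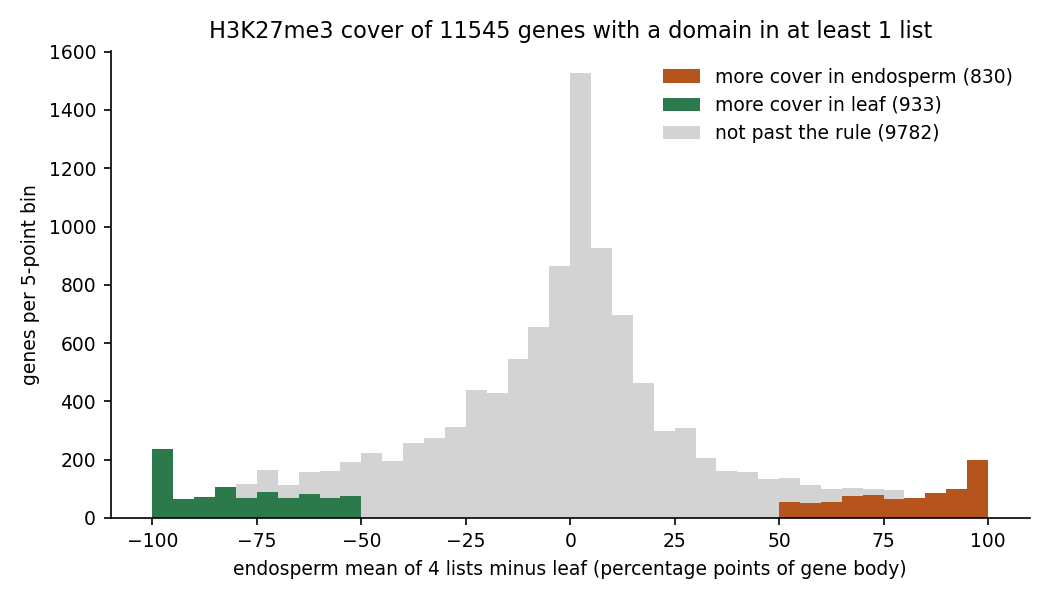
Histogram of the endosperm mean minus leaf, in percentage points of gene body, for the 11545 genes with a domain in at least 1 list (5-point bins, stacked). The 830 genes with more cover in endosperm and the 933 with more cover in leaf pile up at the outer edges. The other 9782 genes were not past the rule, and 3973 of them differed by less than 10 points.

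The difference was often a complete one. Of the genes with more cover in endosperm, 674 (81.2%) had no leaf domain at all, and their median cover was 87.7% in endosperm and 0% in leaf. Of the genes with more cover in leaf, 498 (53.4%) had no domain in any endosperm list, and their median cover was 0% in endosperm and 96.2% in leaf. Cover was 100% in all 4 endosperm lists and 0% in leaf for 91 genes, and the reverse for 198. The same conditions were also applied to each endosperm list against the other 3. Fixed 1, fixed 2 and unfixed 1 lay below the others in 143, 185 and 107 genes and above them in 348, 350 and 557. Unfixed 2 lay below the others in 830 genes and above them in 312. Leaf against the same sets of 3 lists lay below them in 826, 859, 802 and 1029 genes and above them in 1002, 1021, 996 and 924. Every endosperm list thus had fewer genes than leaf in both directions, and unfixed 2 came nearest to leaf, on the low side.

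A table of reads gave a view of the endosperm that does not pass through domain calling. It holds allele-assigned H3K27me3 and H3 reads of endosperm as a pool, without saying which of the endosperm libraries went in. It is therefore not separate from the lists, carries no replicate and has no leaf counterpart. The value given is the log2 of H3K27me3 over H3 reads in a gene, each taken as a share of its nuclear total. A value of 0 thus means the same share of both, not equal numbers of reads. It is given for the 20293 genes with at least 40 H3 reads. Genes with more cover in endosperm had a median of 0.87 (651 genes), and 96.6% of them lay above 0. Genes with more cover in leaf had a median of 0.01 (660 genes), and 50.5% of them lay above 0. Genes marked in all 5 lists had a median of 1.16 (1914 genes), and genes marked in none had -0.55 (14092 genes, 11% above 0). In endosperm reads, genes with more cover in leaf were therefore lower than marked genes but not as low as genes marked in no list.

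**Figure D2:**
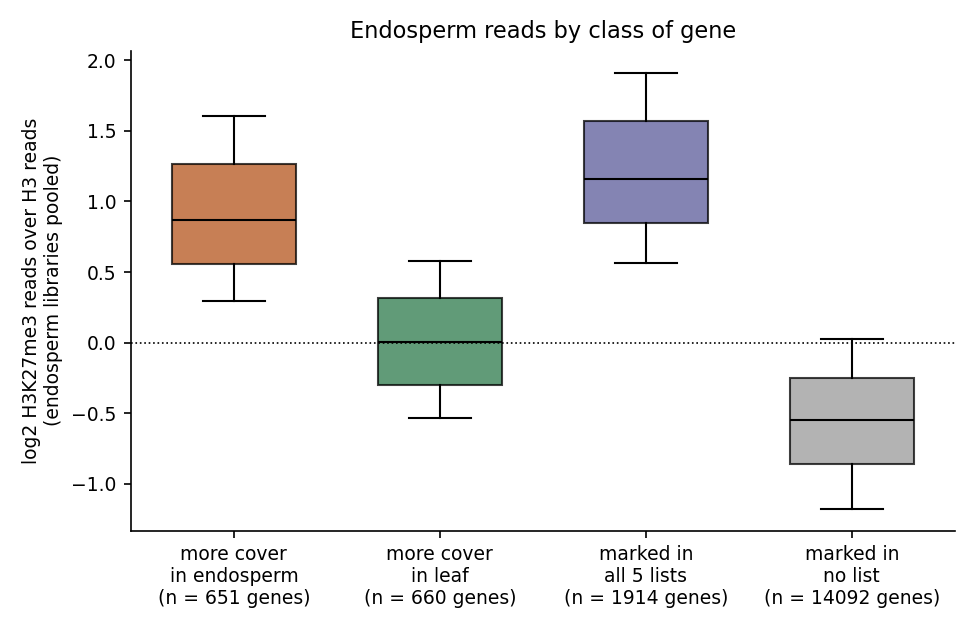
Log2 of H3K27me3 over H3 in pooled endosperm reads, each scaled by its nuclear total, for 4 classes of genes. The line is the median over genes, the box the middle 50% of genes, and the whiskers the 10th and 90th percentiles. The median is 0.87 for genes with more cover in endosperm and 0.01 for genes with more cover in leaf, between 1.16 for genes marked in all 5 lists and -0.55 for genes marked in none.

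Gene length differed between the groups. The median gene body was 2180 bp for more cover in endosperm and 1501 bp for more cover in leaf, against 2078 bp for all genes. More cover in endosperm was found for 1.85% of genes under 1000 bp and 3.05% of genes of 4000 bp or more. More cover in leaf was found for 6.08% and 1.35% of the same classes. The part that length plays in the counts of any family below was not tested, but counts by length are given for peptide and glutathione transferase genes. By chromosome, the shares varied little, from 2.61% to 3.45% for more cover in endosperm and from 3.04% to 3.95% for more cover in leaf.

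Genes with more cover in endosperm often lay side by side. Of the 830, 427 (51.4%) were next to another such gene, in 163 runs of 2 or more, and 59 of these runs held 3 or more genes. Of the 933 genes with more cover in leaf, 209 (22.4%) lay in 96 runs, and 13 of these held 3 or more. Genes in a run can share 1 domain, so they are not separate observations.

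The longest endosperm run held 8 genes over 28259 bp of chromosome 3. It ran from ATBFRUCT1, a cell wall invertase that splits sucrose, through AT3G13800, IDD11, AT3G13820, AT3G13830, AT3G13840 and AT3G13845 to LBD22, of a family of lateral organ boundary proteins. Mean cover over these genes was 94.8% in endosperm and 2.97% in leaf. A domain of 21900 bp (chr3:4538851-4560750) lay over most of the run in fixed 1, and one of 21450 bp (chr3:4539451-4560900) in fixed 2. Unfixed 1 had domains of 22950 bp (chr3:4528501-4551450) and 9000 bp (chr3:4551901-4560900), and unfixed 2 had 6 shorter domains over the same stretch. The leaf list held a single domain of 750 bp (chr3:4534501-4535250), inside ATBFRUCT1. The next endosperm runs held 6 genes each. One began at RBP47C, which encodes an RNA-binding protein, and held its near copy RBP47C' and 5PTASE11, with a mean cover of 92.7% in endosperm and 6.7% in leaf. The other ran from DPA4, a B3-domain regulator of leaf margins, to 2-Cys Prx B, a chloroplast peroxiredoxin, with a mean cover of 84.6% in endosperm and 7.09% in leaf.

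The longest leaf run held 5 genes on chromosome 5, from HDA18, a histone deacetylase known for root epidermis patterning, to AT5G61120. No endosperm list had a domain there, and 1 leaf domain of 14550 bp (chr5:24571201-24585750) covered them at a mean of 99.0%. The next leaf runs held 4 genes each. In the run of AT2G41225, ORS1, a regulator of organ size, AT2G41231 and BHLH100, an iron-deficiency factor, mean cover was 1.34% in endosperm and 100% in leaf. In the run from CYP71B5 to CYP71B31, which holds P450 genes, it was 0% in endosperm and 92.8% in leaf.

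**Figure D3:**
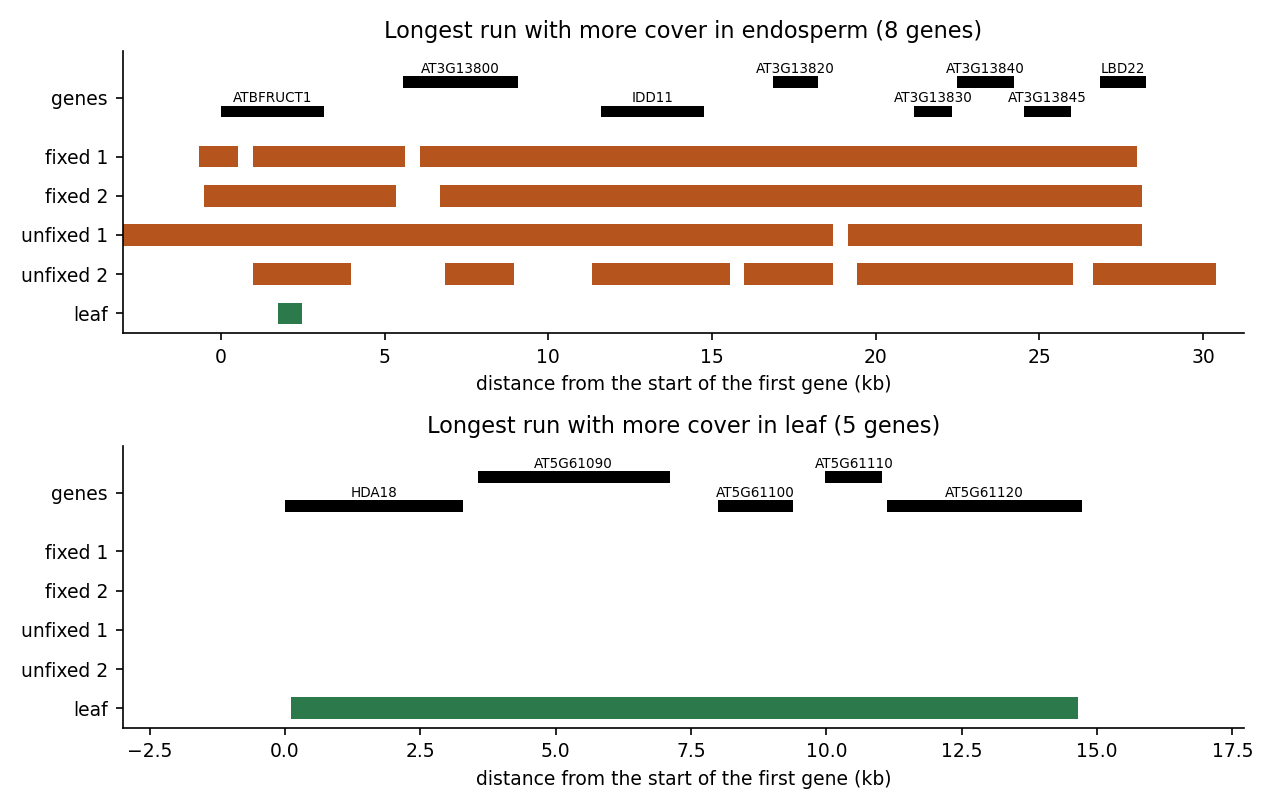
Genes (black) and H3K27me3 domains (orange, 4 endosperm lists; green, leaf) along the longest run in each direction, in kb from the start of the first gene. The 8 genes of the upper run lie almost wholly inside endosperm domains, with a single leaf domain of 750 bp, and the 5 genes of the lower run lie inside 1 leaf domain of 14550 bp with no endosperm domain.

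The 12 genes with a symbol named for the largest difference towards endosperm were all covered over 100% in each of the 4 endosperm lists and over 0% in leaf. In all, 91 genes tied at this difference, and the 12 have the longest gene bodies of those with a symbol. PIL5, also known as PIF1, is a phytochrome-interacting factor that holds back seed germination in the dark. NCED3 encodes a dioxygenase of abscisic acid synthesis, and MAX2 an F-box protein of strigolactone and karrikin signalling. IDD11 and HB22 (AT4G24660) are transcription factors of the C2H2 and zinc finger homeodomain families. The others were RBP47C, the chloroplast CBS-domain gene LEJ2, FUT11, a fucosyltransferase of protein glycans, the glycosyltransferase EPC1, the glucosyltransferase UGT85A5, the P450 gene CYP706A4 and ARAB-1, a GDSL lipase. In endosperm reads, the 11 of them with enough H3 reads had log2 values between 0.75 for CYP706A4 and 2.12 for RBP47C.

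The 12 genes with a symbol named for the largest difference towards leaf were covered over 0% in each of the 4 endosperm lists and over 100% in leaf. Here 198 genes tied, and the 12 were again those with a symbol and the longest gene bodies. SEP1 (AT5G15800), SEP2 (AT3G02310) and SEP3 are MADS-box genes that specify floral organs. KCS10, known as FIDDLEHEAD, makes very long chain fatty acids of the epidermis and cuticle. NCED2 belongs to the same enzyme family as NCED3, and JAZ10 is a repressor of jasmonate responses. The others were c-NAD-MDH2, a cytosolic malate dehydrogenase, FTM1, an acyl carrier protein desaturase, the phosphate transporter PHT1;5, ASE1, an enzyme of purine synthesis, the sugar transporter STP6 and CYP710A2, a sterol desaturase. Their endosperm reads lay between -0.56 for SEP3 and 0.13 for FTM1 in the 11 with enough H3 reads.

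The NCED enzymes, which cut carotenoids in the step that commits them to abscisic acid, had a member among the 12 genes named in each direction. Besides NCED3 and NCED2, the remaining 3 were looked up after these values were seen. NCED5 was covered over 77.4%, 84.7%, 51.1% and 0% in fixed 1, fixed 2, unfixed 1 and unfixed 2, and over 100% in leaf. NCED6 was covered over 36.3%, 52.3%, 39.9% and 95.7% in endosperm and 100% in leaf. NCED9 had cover of 0%, 0%, 15% and 0% in endosperm and 10.2% in leaf. None of these 3 was past the rule, and the 4 lists disagreed widely on NCED5 and NCED6.

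To see which kinds of genes differed, 75 families were set from gene symbols and names. A family holds the genes whose symbol or name carries the family's name. Genes known by a locus tag alone are missed, so counts and shares describe the named members of a family. The 75 families held 3333 genes, of which 139 had more cover in endosperm (4.17%) and 145 more in leaf (4.35%). Genes past the rule were found in 1 direction alone in 18 families for endosperm and in 17 for leaf, and 7 families had none. By role, transcription factors had 55 of 847 genes towards endosperm (6.49%) and 40 towards leaf (4.72%). The kinase role holds 2 families, calcium-dependent and CBL-interacting kinases and the MAP kinase cascade, and receptor kinases were counted apart. It had 8 and 1 of 115 (6.96% and 0.870%). Chromatin and silencing genes had 9 and 2 of 145 (6.21% and 1.38%). Small secreted peptides, 115 of them defensin-like and cysteine-rich, had 1 and 21 of 197 (0.508% and 10.7%). Metabolic enzymes had 20 and 38 of 522 (3.83% and 7.28%). These shares stand against 3.02% and 3.40% of all genes.

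Families differ in how many of their genes carry the mark at all, so the shares were also taken over genes with any cover. These were 10.3% and 7.48% for transcription factors, 19.5% and 2.44% for the 2 kinase families, and 13.4% and 2.99% for chromatin and silencing genes. They were 0.862% and 18.1% for small secreted peptides and 5.97% and 11.3% for metabolic enzymes, against 7.19% and 8.08% of all covered genes. Over covered genes, transcription factors were thus under the leaf share of all genes and metabolic enzymes under the endosperm share, where both were above it over all genes. Members of a family often lie next to each other. Close copies may also share reads, and the placing of such reads is not described in the labels or files.

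**Figure D4:**
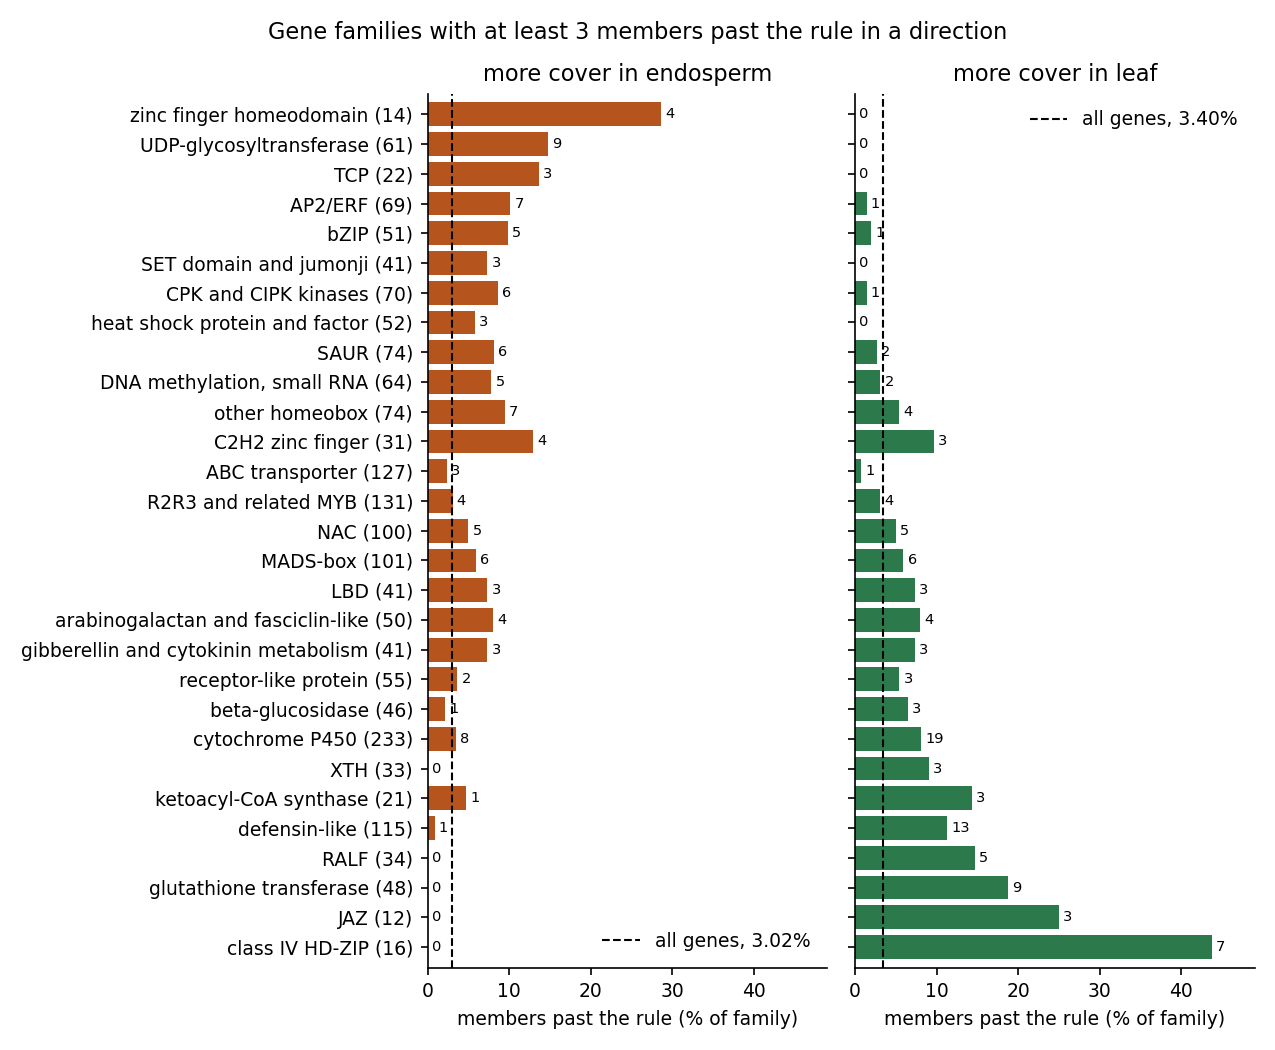
Share of the members past the rule (bars, percent of family; the number of genes stands at each bar) in the endosperm direction on the left and the leaf direction on the right, for every family with at least 3 such genes in a direction; family sizes are in brackets, and dashed lines mark the 3.02% and 3.40% of all genes. Zinc finger homeodomain genes and UDP-glycosyltransferases head the endosperm side and class IV HD-ZIP, JAZ and glutathione transferase genes the leaf side.

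The class IV HD-ZIP family, homeodomain proteins best known for epidermal cell fate, had more cover in leaf in 7 of its 16 genes (43.8%) and more in endosperm in none. The 7 genes lay at 7 separate places in the genome. Mean cover over the family was 35.2%, 31.1%, 32.3% and 27% in the endosperm lists and 63.7% in leaf. HDG8 was covered over 25.5%, 25.5%, 18.2% and 18.2% in fixed 1, fixed 2, unfixed 1 and unfixed 2, and over 100% in leaf. ANL2, which acts in epidermal pigment and root cell identity, was covered over 8.41%, 39.2%, 16.8% and 22.4% in endosperm and 92.5% in leaf. HB-7 (AT5G46880, also HDG5) was covered over 23.5%, 24.6%, 52.8% and 29.3% in endosperm and 100% in leaf.

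ATML1 and PDF2 (AT4G04890), a pair that specifies the epidermis of the embryo, were also covered further in leaf. ATML1 was at 8.93%, 0%, 24.6% and 0% in endosperm and 66.5% in leaf. PDF2 was at 18.9%, 11.5%, 21.4% and 31.3% in endosperm and 70.9% in leaf, a difference of -50.1 points that became -49.5 without fixed 1 and -47.0 without fixed 2. HDG1 was at 49.7%, 0%, 18.7% and 28.0% in endosperm and 75% in leaf, a difference of -50.9 points that became -42.9 without fixed 2 and -49.1 without unfixed 1. PDF2 and HDG1 therefore lost their call without 1 library. The seventh gene, the imprinted FWA, had no endosperm domain and was covered over 54.8% in leaf. Most of these genes kept some endosperm cover: counted as a domain anywhere in the gene body in leaf and none in any endosperm list, FWA was the only one of the family.

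The remaining 9 class IV genes were not past the rule. HDG10 and GL2, the regulator of trichomes and root hairs, were marked in both tissues, at 70.5 ± 5.4% and 76.5 ± 16.8% in endosperm (mean ± SD, n = 4) and 68.2% and 75.7% in leaf. HDG11 and HDG12 had no domain in any list. HDG7 went the other way, at 23.5 ± 9.58% in endosperm and 0% in leaf. In endosperm reads, the 7 genes with more cover in leaf lay between -0.58 for FWA and 0.32 for PDF2, with a median of 0.14. That range lies, except for FWA, above the -0.55 of unmarked genes and below the 1.16 of genes marked in all 5.

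In the zinc finger homeodomain (ZHD) family, the genes past the rule had the opposite direction. More cover in endosperm was found in 4 of its 14 genes (28.6%) and more in leaf in none. The median difference over the 14 genes was only 0.40 points. Of the 14, 6 were marked in leaf and 4 met the stricter condition of being marked in all 4 endosperm lists. These plant-specific proteins act in floral and vegetative development. HB22 (AT4G24660) is among the 12 named above. HB25 was covered over 100%, 100%, 100% and 86.9% in endosperm and 0% in leaf, and HB30 over 91.0%, 91.0%, 82.4% and 43.0% in endosperm and 0% in leaf. HB31, the last of the 4, was at 92.9%, 46.4%, 81.3% and 46.4% in endosperm and 0% in leaf. The 4 genes had no leaf domain, and their endosperm reads, given for 3 of them, lay between 1.00 and 2.14. Family means were 69.7%, 65.2%, 58.7% and 45.4% in the endosperm lists and 40.6% in leaf, so unfixed 2 lay close to leaf. Of the other 10 genes, HB24 was marked in both tissues, at 96.4 ± 7.10% in endosperm and 100% in leaf, and HB32 in neither. HB28 had 0%, 42.7%, 100% and 0% in endosperm and 79.2% in leaf, an example of a gene where the endosperm lists spread too widely for a call.

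**Figure D5:**
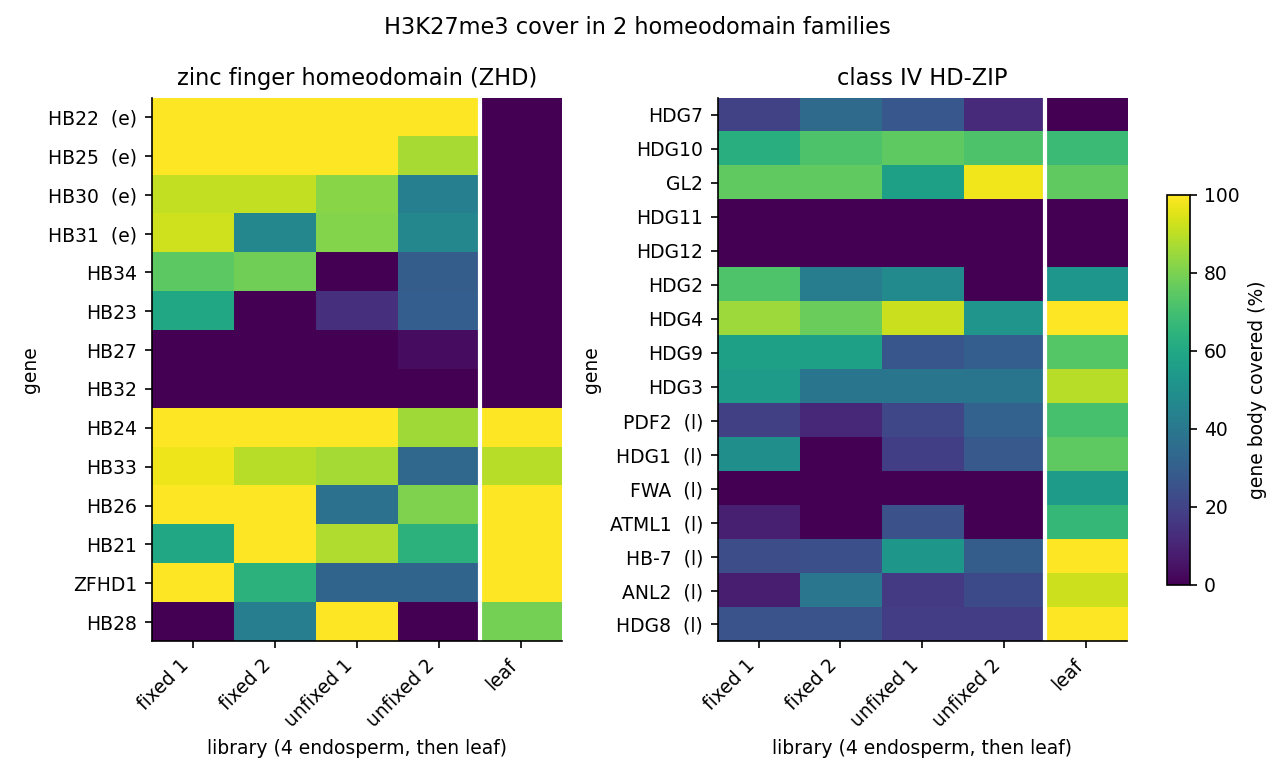
Percent of the gene body covered in each of the 4 endosperm lists and in leaf for every ZHD gene (left) and class IV HD-ZIP gene (right), ordered by the endosperm mean minus leaf; (e) and (l) stand for genes past the rule towards endosperm and leaf. The 4 ZHD genes with an (e) are at 0% in leaf, and the 7 class IV genes with an (l) lie between 54.8% and 100% in leaf.

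Other homeobox genes, which hold the KNOX, BELL and WOX groups and the other HD-ZIP classes, divided within a subgroup. Of 74 genes, 7 had more cover in endosperm and 4 more in leaf (9.46% and 5.41%). Among those towards endosperm were BLH4 and BLH2, BELL proteins that restrain growth at leaf margins, and ATH1, a BELL regulator of the shoot. BLH4 was covered over 91.5%, 100%, 92.0% and 80.1% in endosperm and 0% in leaf, and BLH2 over 82.4%, 79.5%, 82.4% and 76.5% in endosperm and 0% in leaf. ATH1 was covered over 87.1%, 100%, 100% and 34.4% in endosperm and 0% in leaf. Other BELL genes went towards leaf. RPL, a regulator of fruit patterning, was at 0%, 37.9%, 0% and 0% in endosperm and 100% in leaf, and BLH5 was at 33.3%, 38.8%, 48.4% and 11.1% in endosperm and 100% in leaf. WOX8, a regulator of early embryo patterning, was at 30.0%, 0%, 0% and 0% in endosperm and 100% in leaf.

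MADS-box genes were split evenly, with 6 of 101 in each direction (5.94%). SEP1, SEP2 and SEP3, given above, and SHP1, given with the seed coat genes below, were among the 6 towards leaf. Towards endosperm, SVP, a repressor of flowering, was covered over 100%, 100%, 100% and 55.3% in endosperm and 0% in leaf. AGL59 and AGL92 were covered over 100% in all 4 endosperm lists and 0% in leaf. Endosperm reads of the MADS-box genes past the rule had a median of 1.32 for those with more cover in endosperm and -0.17 for those with more in leaf (5 genes each).

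Several other transcription factor families leaned towards endosperm. AP2/ERF genes had 7 of 69 named genes with more cover there (10.1%) and 1 with more in leaf. DREB1A, a cold-response activator, was covered over 100% in all 4 endosperm lists and 0% in leaf. RAP2.7, a repressor of flowering known as TOE1, was at 100%, 100%, 100% and 81.6% in endosperm and 0.808% in leaf, and RAP2.10 at 100%, 100%, 100% and 91.6% in endosperm and 0% in leaf. TCP genes, which set growth and cell division in leaves and flowers, had 3 of 22 (13.6%) towards endosperm and none towards leaf. TCP15 was at 100%, 100%, 100% and 73.7% in endosperm and 37.4% in leaf, and PTF1, also TCP13, at 98.5%, 100%, 98.5% and 73.2% in endosperm and 25.2% in leaf. The last of the 3, AT5G23280, had 60.4 ± 26.9% in endosperm (n = 4) and 0% in leaf, and it lost its call without fixed 1, fixed 2 or unfixed 2 (a difference of 48.8 points without fixed 2). bZIP genes had 5 of 51 towards endosperm and 1 towards leaf, among them BZIP34 at 78.4 ± 20.2% and its close relative BZIP61 at 59.6 ± 14.4% in endosperm, both at 0% in leaf.

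The remaining large families had similar numbers in both directions. C2H2 zinc finger genes had 4 and 3 of 31. Besides IDD11, ZFP8 averaged 97.7 ± 2.63% and ZFP4 89.4 ± 21.1% in endosperm, both with 0% in leaf. KNU, which ends stem cell activity in the flower, and ZAT11 had 0% in every endosperm list and 100% in leaf. IDD7 was at 45.6 ± 14.7% in endosperm and 97.7% in leaf, and its difference of -52.1 points became -45.2 without unfixed 2. NAC genes had 5 in each direction of 100, and the 5 towards endosperm lay at 3 places. NAC003, NAC004 and NAC005 averaged 84.8 ± 26.0%, 84.2 ± 31.6% and 79.7 ± 27.7% in endosperm against 0% in leaf, while NAC2 (AT3G15510), NAC019 and NAC049 had 0%, 12 ± 24.0% and 0% in endosperm against 94.3%, 97.9% and 76.7% in leaf. None of the 5 NAC genes towards endosperm had all 4 lists at least 50 points above leaf. R2R3 and related MYB genes had 4 in each direction of 131. MYB305 and MYB48 averaged 100% and 95.4% in endosperm against 9.50% and 0% in leaf, and MYB59 was at 100%, 98.1%, 100% and 61.9% in endosperm and 0% in leaf. MYB11, a regulator of flavonol synthesis, averaged 3.46% in endosperm against 100% in leaf, and MYB30 and MYB115 averaged 0% and 28.2% against 73.8% and 100%. MYB115 was at 0%, 48.4%, 64.3% and 0% in the 4 endosperm lists, and its difference of -71.8 points became -62.4 and lost its call on the 2 SD condition without fixed 1 or without unfixed 2. LBD genes had 3 in each direction of 41. LBD11, LBD22 and LBD39 averaged 96.0%, 90.9% and 71.6% in endosperm, each with 0% in leaf, and LBD27, LBD32 and LBD35 had no endosperm domain and 69.9%, 68.5% and 100% in leaf.

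Hormone genes had 12 of 217 with more cover in endosperm (5.53%) and 10 with more in leaf (4.61%). The JAZ repressors, which bind and block the transcription factors of the jasmonate response, had 3 of 12 towards leaf and none towards endosperm. JAZ8 and JAZ10 were covered over 0% in all 4 endosperm lists and 100% in leaf, and JAZ1 over 0%, 0%, 0% and 37.9% in endosperm and 69.7% in leaf. Endosperm reads over JAZ1 gave a log2 of 0.89, close to the median of genes with more cover in endosperm, although 3 endosperm lists held no domain there. JAZ8 and JAZ10 gave -0.13 and 0.10. JAZ4 was the only other family member with a domain, at 58.7 ± 22.0% in endosperm and 49.6% in leaf.

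Genes of gibberellin and cytokinin metabolism had 3 of 41 in each direction. GA3OX1, which makes active gibberellin in the last step of synthesis, was covered over 100%, 100%, 100% and 86.5% in endosperm and 0% in leaf. IPT5, an enzyme of cytokinin synthesis, averaged 97.7 ± 4.51% in endosperm and 21.3% in leaf, and LOG2 (AT2G35990), which releases active cytokinin, 52.0 ± 21.6% in endosperm and 0% in leaf. The difference for LOG2 became 44.0 points without fixed 1 and 49.4 without fixed 2, so its call was lost without either. Towards leaf, GA20OX2 and GA20OX5, which act before GA3OX1 in the pathway, averaged 0% and 10.3 ± 13.6% in endosperm against 73.6% and 84.7% in leaf. CKX2, which breaks cytokinin down, averaged 27 ± 21.6% in endosperm against 98.5% in leaf. SAUR genes, small genes of the auxin response, had 6 of 74 towards endosperm and 2 towards leaf. AT1G75580, AT2G21200 and AT2G21210 were covered over 100% in every endosperm list and 0% in leaf, and the 6 genes lay at 4 places. Auxin response factors, which carry the response itself, had 1 of 23 towards endosperm and none towards leaf, and ACC synthases and oxidases, which make ethylene, had none of 16 in either direction.

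Genes for small secreted peptides leaned towards leaf. Defensin-like and cysteine-rich peptides, which act in defence and in pollen tube growth, had 13 of 115 with more cover in leaf and 1 with more in endosperm. Family means were 25.5%, 25%, 24.7% and 15.8% in the endosperm lists and 38.9% in leaf. LCR32, LCR24 and LCR26 were covered over 0% in every endosperm list and 100% in leaf. RALF peptides, ligands of receptor kinases at the cell surface, had 5 of 34 towards leaf and none towards endosperm. RALFL9, RALFL16 and RALFL30 were at 0% in every endosperm list and 100% in leaf. CLE peptides, ligands that limit stem cell number, had 1 of 31 towards leaf and none towards endosperm. Their leaf share of 3.23% was not above the 3.40% of all genes. Mean cover of CLE genes was 53.6 ± 13.1% in endosperm and 61.4% in leaf. These genes are short: 158 of the 197 peptide genes lie under 1000 bp, and of these 18 had more cover in leaf (11.4%) and 1 more in endosperm (0.633%). All genes under 1000 bp gave 6.08% and 1.85%. Among genes of at least 1000 bp, RALF counts fell to 0 and defensin-like counts to 2.

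UDP-glycosyltransferases, which join sugars to hormones, phenolics and other small molecules, had 9 of 61 named genes with more cover in endosperm (14.8%) and none with more in leaf. Mean cover over the family was 34.5%, 35.3%, 36.1% and 32.1% in the endosperm lists and 22.4% in leaf. UGT85A5 and UGT76B1, which acts on immune signals such as salicylic acid, were covered over 100% in all 4 endosperm lists and 0% in leaf. UGT84A4, which joins glucose to hydroxycinnamic acids, was at 100%, 100%, 83.8% and 100% in endosperm and 0% in leaf. The 9 genes lay at 7 places, and UGT85A5, UGT85A1 and UGT85A2 share a cluster. In that cluster, UGT85A1 averaged 92.2 ± 10.6% in endosperm and 0% in leaf, UGT85A2 91.2 ± 17.7% and 30.5%, UGT85A3 100% and 56.8%, and UGT85A7 80.7 ± 24.3% and 100%. Neighbouring copies thus differed in leaf cover from 0% to 100% while each was marked in the endosperm mean. The remaining genes of the 9 were UGT76E2 at 70.2 ± 25.6%, UGT73C6 at 53.8 ± 15.1%, UGT87A2 at 78.5 ± 29.2% and UGT71B1 at 89.6 ± 14.7% in endosperm, against 0%, 0%, 6.21% and 30.6% in leaf. The difference for UGT73C6 became 46.9 points without fixed 1, which ended its call. All 9 had endosperm reads above 0, from 0.15 to 1.41 with a median of 1.02. Another 2 genes, picked out after their values were seen, were covered over 100% in leaf but spread too widely in endosperm for a call: UGT78D3 averaged 48.7 ± 32.7% and UGT73C2 36.5 ± 47.6% there.

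Glutathione transferases, which detoxify reactive compounds by joining them to glutathione, went the other way. Of 48 genes, 9 had more cover in leaf (18.8%) and none more in endosperm. Family means were 9.73%, 10.8%, 9.25% and 4.97% in the endosperm lists and 30.6% in leaf. GSTU26, GSTF14 and GSTU20 were covered over 0% in every endosperm list and 100% in leaf. The other 6 were GSTF5, GSTF4, GSTU28, GSTU21, GSTU6 and GSTU2, with leaf cover between 75.9% for GSTU2 and 100% for GSTU28. Only GSTF4, at 68.1% in fixed 2, and GSTU28, at 39.2% in unfixed 1, had any endosperm domain, each in 1 list. GSTF4 lost its call on the 2 SD condition without fixed 1, unfixed 1 or unfixed 2, when its difference of -71.7 points became -66.0, and it turned to 17 points with only the upper 75% of domains by enrichment. The 9 genes lay at 6 places. In the GSTU cluster on chromosome 2, GSTU6 and GSTU2 were at 98.7% and 75.9% in leaf, while GSTU1, GSTU3, GSTU4, GSTU5 and GSTU7 beside them had no domain in any list. Endosperm reads of the 8 genes with enough H3 reads lay between -0.51 and 0.34, with a median of -0.23. The median body of the family is 1384 bp, against 2078 bp for all genes, and 3 of the 48 genes lie under 1000 bp. Of all genes of 1000 to 2000 bp, 4.21% had more cover in leaf. Leaving out any 1 endosperm library gave 8 or 9 genes.

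Cytochrome P450 genes had 19 of 233 with more cover in leaf (8.15%) and 8 with more in endosperm (3.43%). Towards leaf, CYP94D1 and CYP710A2 lay at 0% in every endosperm list and 100% in leaf, as did CYP71B31 of the run given above. Towards endosperm, CYP706A4, CYP706A5 and CYP706A7 form a cluster on chromosome 4 with CYP706A6, which was also past the rule. The 8 genes towards endosperm lay at 5 places. CYP706A5 was covered over 83.9%, 100%, 100% and 83.9% in endosperm and 0% in leaf, and CYP706A7 over 63.7%, 100%, 73.5% and 100% in endosperm and 0% in leaf. Endosperm reads had a median of 0.92 for the P450 genes with more cover in endosperm (6 genes) and -0.07 for those with more in leaf (13 genes).

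Genes of the cuticle and cell wall had members in both directions. The 5 cell wall families together had 9 of 175 genes towards endosperm (5.14%) and 10 towards leaf (5.71%). Of those with any cover, these were 9.78% and 10.9%, against 7.19% and 8.08% of all covered genes. Ketoacyl-CoA synthases, which lengthen fatty acids for wax and cuticle, had 3 of 21 with more cover in leaf, which were KCS10, KCS5 and KCS19, and 1 with more in endosperm. KCS5 and KCS19 had no endosperm domain and were at 88.1% and 84.7% in leaf. Xyloglucan endotransglucosylases, which cut and rejoin wall polymers, had 3 of 33 towards leaf and none towards endosperm. XTH30 was at 17.7%, 0%, 0% and 0% in endosperm and 100% in leaf, XTH21 at 0%, 0%, 54.5% and 0% in endosperm and 100% in leaf, and XTR6 averaged 2.07 ± 4.14% and 66.9%. Arabinogalactan and fasciclin-like proteins had 4 of 50 in each direction. FLA9 was covered over 100% in every endosperm list and 0% in leaf, FLA1 averaged 86.1 ± 11.8% in endosperm and 0% in leaf, and FLA13 93.4 ± 13.3% and 27.4%. FLA10 was at 0% in every endosperm list and 69.3% in leaf, AGP25 at 0% and 74.0%, and AGP31 averaged 25.5 ± 29.6% in endosperm and 100% in leaf. Beta-glucosidases had 1 and 3 of 46, with DIN2, BGLU24 and BGLU47 at 35.7 ± 24.7%, 0% and 0% in endosperm and 100%, 54.3% and 52.3% in leaf.

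Among signalling and transport genes, calcium-dependent and CBL-interacting kinases, which relay calcium signals, had 6 of 70 with more cover in endosperm (8.57%) and 1 with more in leaf. CIPK26 was covered over 100%, 100%, 100% and 96.7% in endosperm and 0% in leaf, CPK15 over 100%, 100%, 100% and 85.1% in endosperm and 0% in leaf, and CIPK1 over 89.0%, 100%, 89.0% and 80.4% in endosperm and 3.11% in leaf. The 6 genes lay at 6 places. Receptor-like proteins had 2 of 55 towards endosperm (3.64%) and 3 towards leaf (5.45%). RLP21, RLP7 and RLP43 had 22.0 ± 17.8%, 0% and 0% in endosperm and 92.7%, 50.3% and 58.1% in leaf, and the difference for RLP21 turned to 3.74 points with only the upper 75% of domains by enrichment. ABC transporters had 3 of 127 towards endosperm and 1 towards leaf, with ABCG3 at 74.9 ± 15.6%, ABCI13 at 65.2 ± 18% and ABCG22 at 51.5 ± 24.7% in endosperm and 0% in leaf. ABCG22 lost its call without fixed 1, fixed 2 or unfixed 1, with differences of 48.1, 51.0 and 43.8 points. ABC transporters were thus under the shares of all genes in both directions.

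Genes of chromatin and silencing had 9 of 145 with more cover in endosperm and 2 with more in leaf. SUVH9, a protein that helps bring RNA polymerase V to methylated DNA, was covered over 100%, 100%, 99.9% and 99.9% in endosperm and 0% in leaf. SDG11 was at 100%, 100%, 100% and 88.5% in endosperm and 0% in leaf. SDG4, a histone methyltransferase, was at 58.0%, 81.2%, 83.8% and 51.1% in endosperm and 0% in leaf. These were the 3 SET domain and jumonji genes of 41 past the rule, and none of that family had more cover in leaf. Genes of DNA methylation and small RNA silencing had 5 of 64 towards endosperm and 2 towards leaf. VIM3, which binds methylated cytosines, was at 100%, 100%, 100% and 96.5% in endosperm and 0% in leaf. DCL4, the dicer of trans-acting small RNAs, was at 43.7%, 77.8%, 94.1% and 49.0%, and AGO10, an argonaute of the shoot meristem, at 75.6%, 68.3%, 73.0% and 41.4%, both with 0% in leaf. The other 2 towards endosperm were NRPB10, at 61.2 ± 26.8%, and RDR2, at 63.2 ± 15.1%, both with 0% in leaf. NRPB10 lost its call on the 2 SD condition without fixed 1 or fixed 2, at differences of 63.7 and 55.7 points. The 2 towards leaf, which were named after their values were seen as were NRPB10 and RDR2, were DRM1, at 0% in every endosperm list and 81.2% in leaf, and AGO9, at 0% and 82.9%.

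Of 31 Polycomb, trithorax and DNA methylation regulators, 2 were past the rule towards endosperm and 2 towards leaf, and 22 were marked in no list. Over all genes, the shares of these groups were 3.02%, 3.40% and 69.1%. DRIP2, a RING protein of Polycomb repressive complex 1 also called BMI1A, was covered over 96.6%, 87.1%, 91.6% and 34.7% in endosperm and 0% in leaf. VRN2, a paralogue of FIS2 in Polycomb repressive complex 2, was covered over 47.2%, 70.9%, 82.7% and 31.5% in endosperm and 0% in leaf. The difference of 58.1 points for VRN2 became 49.9 without unfixed 1. FIS2 itself had the opposite direction, at 0%, 28.6%, 0% and 0% in endosperm and 77.2% in leaf. In endosperm reads, VRN2 had a log2 of 0.50 and FIS2 of 0.26, both above the -0.55 of unmarked genes. ULT1, which opposes Polycomb silencing, had no endosperm domain and was covered over 69.2% in leaf.

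Families that most cells use had few genes past the rule. Core families (ribosomal proteins, histones, proteasome, cell cycle, heat shock, embryo-defective genes, exocyst and cytoskeleton) had 9 of 543 towards endosperm (1.66%) and 3 towards leaf (0.552%), both under the shares of all genes. Of the 144 with any cover, these were 6.25% and 2.08%, against 7.19% and 8.08%. Within them, heat shock genes had 3 of 52 towards endosperm. HSC70-1, a cytosolic chaperone, was at 83.4%, 100%, 77.2% and 87.6% in endosperm and 0% in leaf. The factor HSFC1 was at 100%, 100%, 92.5% and 73.8% and ERD2 (AT1G56410), a chaperone gene, at 100%, 100%, 78.5% and 43.2% in endosperm, both with 0% in leaf. Of 47 photosystem and light-harvesting genes, LHCB5, an antenna protein named after its value was seen, was past the rule. It averaged 91.9 ± 11.5% in endosperm and 0% in leaf, and 5 of the 47 genes had a domain in any list. Oleosin and storage protein genes had 2 of 13 towards leaf and none towards endosperm. Their mean cover was 72.2 ± 2.62% in endosperm and 91.6% in leaf, the highest of any family named here in both tissues.

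Marker genes of the tissues were counted as well. Being marked in all 4 endosperm lists is a stricter condition than being marked in the single leaf list, and it held for 11.9% of all genes, against 20.3% marked in leaf. The number in each endosperm list is therefore given too. Of 19 leaf genes, 5 were marked in all 4 endosperm lists (7, 6, 6 and 7 in each) and 4 in leaf, and RBCS3B, a small subunit gene of Rubisco, was past the rule at 97.5%, 97.5%, 70.3% and 93.2% in endosperm and 0% in leaf. Of 20 endosperm genes, 9 were marked in all endosperm lists (10, 10, 10 and 9 in each) and 13 in leaf, and 3 were past the rule towards leaf. These were FIS2, FWA and RGE1, also ZOU, a regulator of endosperm breakdown with 0% in every endosperm list and 69.5% in leaf. Of 15 seed coat genes, 3 were marked in all endosperm lists (5, 6, 6 and 3 in each) and 8 in leaf. SHP1, a MADS-box gene of fruit and seed coat, was at 0% in every endosperm list and 92.7% in leaf, although its endosperm reads gave a log2 of 0.73. TT8, a regulator of seed coat tannins, was at 41.8%, 7.97%, 16.2% and 0% in endosperm and 67.7% in leaf, and its difference of -51.2 points became -48.4 without fixed 2 and -45.7 without unfixed 2. Of 19 embryo genes, 9 were marked in all endosperm lists (12, 13, 12 and 9 in each) and 16 in leaf. LEC1, a regulator of embryo maturation, was at 0%, 65.1%, 0% and 0% in endosperm and 100% in leaf, and PDF2, ATML1 and WOX8 were given above. Mean cover was 34.1% in endosperm and 18.5% in leaf for leaf genes, 44.9% and 60.1% for endosperm genes, 35.8% and 52.5% for seed coat genes, and 62.8% and 80.9% for embryo genes. Among the leaf genes, RBCS3B, RBCS2B and RBCS1B are neighbouring copies and not separate observations. They averaged 89.6%, 100% and 62.8% in endosperm, against 0%, 79.1% and 0% in leaf. Of the 19 leaf genes, 11 were marked in no list, as were 69.1% of all genes. A domain list does not show which cell types gave the nuclei, and the part of seed coat or embryo nuclei in the endosperm lists was not tested.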

How the data were processed

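Per the submitters' processing notes, Trim Galore, Bowtie2, Picard, deepTools 2.0 and SICER were used, with the genome build TAIR10; the sources used here do not say which step each served. The authors deposited 1 domain list per H3K27me3 library. In each, the authors gave every domain a p-value or a q-value, without saying which, and all lie at or under 0.05. The authors also gave each domain an enrichment, computed by them before they deposited the lists and taken here as log2; the base is not stated, and the value was used only to rank domains within a list. The authors also deposited whole-number read counts in 150 bp bins for H3K27me3 and H3 of endosperm (12189039 and 7638577 nuclear allele-assigned reads). Which of the endosperm libraries were pooled in these counts is not stated.

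Genes came from the TAIR10.1 annotation, whose nuclear chromosomes were taken to share TAIR10 coordinates. As a check, 24 of 34 embryo and seed coat genes were marked in leaf, against 9 and 8 when moved by 50000 bp either way. Cover was computed with Python 3.11.15, numpy 2.4.6 and pandas 2.3.3, and plots with matplotlib 3.10.9, by functions tested on simulated data. The simulated lists each lost about 5% of their domains, and domain ends moved by up to 300 bp. The rule found 78 of 100 genes changed towards endosperm and 89 of 100 changed towards leaf. It also called 164 unchanged genes towards endosperm and 16 towards leaf. In that setting, false calls thus fell mostly towards endosperm, and their number in the real lists was not tested. Reads were summed over bins whose midpoint lies in a gene, with 0.5 added to each count. The ratio was scaled by the nuclear totals of H3K27me3 and H3 reads. Families were set from symbols and names, since the annotation table holds no product names. Genes named are the 12 largest differences per direction among genes with a symbol, up to 3 per family with at least 3 genes past the rule, marker and chromatin genes past the rule, and the 3 longest runs per direction; ties went to the longer body. Families shown whole and genes said to be named after their values are exceptions. Members, families and lists were chosen with earlier results of these data known. Alternatives changed 1 choice at a time. The H3, IgG and seed coat and embryo libraries were not analysed here as libraries of their own, and no sequence was used.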

Additional observations from a re-analysis of the deposited data

Results flagged for a closer look

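Cover was checked for an endosperm list far from the other 3 in the 5 library summaries, 29 families and 172 genes, by the gap to the nearest list over the whole range with Dixon's 95% limit. The limit is set to pass about 1 case in 20 by chance for normal values, which cover of single genes does not follow. Where 3 lists stand at 0% or at 100%, any other value in the remaining list passes. The count of genes can therefore not be set against chance. None of the library summaries passed, 5 families did and 38 genes did. Unfixed 2 was the far list in 4 families, each time low, and in 22 genes, 20 times low.

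Among families, mean cover in unfixed 2 was 35.7% for R2R3 and related MYB genes, against 52.6% to 54.1% in the other lists. It was 32.7% for other homeobox genes, against 47.0% to 48.4%, 15.8% for defensin-like genes, against 24.7% to 25.5%, and 43.1% for beta-glucosidases, against 51.0% to 52.3%. JAZ genes were low in fixed 1, at 3.60%, against 6.22% to 6.65%.

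Among genes with more cover in endosperm, unfixed 2 was low for HB25 (86.9%), SVP (55.3%), RAP2.7 (81.6%), RAP2.10 (91.6%), TCP15 (73.7%), GA3OX1 (86.5%), CIPK26 (96.7%), CPK15 (85.1%), SDG11 (88.5%) and VIM3 (96.5%), where the other endosperm lists were at 100%. The same held for NAC004 (36.9%), UGT85A2 (64.7%), ZFP4 (57.7%), LBD11 (83.8%), MYB48 (81.6%) and FLA13 (73.5%). It was also low for PTF1, at 73.2% against 98.5% to 100%, for NAC003, at 45.9% against 96.6% to 100%, for MYB59, at 61.9% against 98.1% to 100%, and for DRIP2, at 34.7% against 87.1% to 96.6%. Unfixed 1 was low for UGT84A4, at 83.8% against 100%, and for RBCS3B, at 70.3% against 93.2% to 97.5%. It was high for ABCG3, at 98.3% against 66.2% to 69.1%, and for RDR2, at 85.7% against 53.3% to 56.9%. Fixed 1 was low for IPT5, at 91.0% against 100%.

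Among genes with more cover in leaf, 1 endosperm list had a domain where the other 3 had none. This was unfixed 2 for JAZ1 (37.9%) and MYB11 (13.9%), fixed 2 for RPL (37.9%), FIS2 (28.6%), LEC1 (65.1%) and GSTF4 (68.1%), and fixed 1 for WOX8 (30.0%) and XTH30 (17.7%). It was unfixed 1 for NAC019 (48.1%), GSTU28 (39.2%), XTH21 (54.5%), BHLH100 (21.4%) and XTR6 (8.28%). LEC1 is thus marked in 1 endosperm list of 4.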

How the results depend on the processing

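No paired analysis was possible because the results come from no test and leaf has 1 library. Most of the 15 other settings kept both counts within 1.5 times of 830 genes (more cover in endosperm) and 933 genes (more cover in leaf). A minimum difference of 80 points left 450 and 479 genes, and asking leaf to lie at least 50 points from every endosperm list left 553 and 644. Leaving out 1 endosperm library gave 802 to 1029 and 924 to 1021 genes. For 172 genes named with values, the 16 settings gave 2732 results, of which 273 were no longer past the rule and 2 turned their direction: GSTF4 (17 points) and RLP21 (3.74 points), both with the upper 75% of domains by enrichment. Without 1 endosperm library, 12 genes lost their call, as given beside each, and 78 genes were past the rule in every setting that could be run. Class IV HD-ZIP fell to 0 genes at 80 points, 3 genes when leaf had to lie 50 points from every list, 1 gene by any overlap and 4 with 500 bp on both sides, and glutathione transferases ranged from 6 to 11. The NAC genes towards endosperm ranged from 0 to 7. The cause of these shifts was not tested. A window of 500 bp upstream was not run, since the annotation table gives no strand; 500 bp on both sides, chosen after seeing the data, gave 734 and 949 genes. One leaf library, unknown depth and a narrow unfixed 2 list limit every value, and cover follows each list's own domain threshold.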
